A study of Mus musculus with 32 samples.

Results

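The Myc, Max and Mxd network was followed through 3 experiments on mouse B-lineage cells. It comprised 9 genes: Myc, Mycn, Mycl, Max, Mxi1, Mxd1, Mxd3, Mxd4 and Mnt. Every probe set that the array annotation assigned to a single one of these genes was kept, which gave 22 probe sets of the 34945 single-gene probe sets, for 9 of 18193 genes. Mxd4 had 4 probe sets, Mycn, Mycl, Mxd1 and Mxd3 had 3 each, Mxi1 and Mnt had 2 each, and Myc and Max had 1 each.

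The members are basic helix-loop-helix leucine zipper proteins that share the obligate partner Max. Myc, N-Myc (Mycn) and L-Myc (Mycl) bind E-boxes as dimers with Max and activate genes of growth, ribosome production and nucleotide synthesis. Mxd1, Mxi1, Mxd3, Mxd4 and Mnt pair with Max as well and recruit Sin3 corepressors to the same sites, and several Mxd proteins are known for their accumulation as blood cells stop dividing and differentiate. In early B-cell precursors Myc and N-Myc act downstream of interleukin-7 and pre-B-cell receptor signals, and enforced Myc expression drives B-lineage lymphoma in mice.

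In the first experiment the 230238 pre-B-cell line received the retrovirus pMIG carrying Ebf1-Engrailed (3 samples) or the same virus empty (3 samples), and 500000 GFP-sorted cells were taken per sample. Ebf1 is a transcription factor that B-cell specification requires, and in the fusion it is joined to Engrailed, whose domain is known as a transcriptional repressor. In the second, Ebf1-/- cells from C57BL/6J E14.5 (embryonic day) fetal liver, grown on OP9 stroma with KIT ligand, FLT3L and interleukin-7, carried Ebf1-ER, an Ebf1 fusion that responds to tamoxifen. They were harvested 0, 6, 12 and 24 h after 0.1 uM 4-hydroxytamoxifen was added, with 2 samples of 500000 cells per time. In the third, 1000000 live-sorted cells from each of 8 enlarged lymph nodes of Ebf1+/-Pax5+/- mice of about 30 weeks were measured on 2 arrays per node, and sorted wild-type C57BL/6 pro-B cells on 2 arrays. The labels name no lineage gate for the node cells. Engrailed was tested in 1 line, all Ebf1-ER cells including those at 0 h lacked Ebf1 of their own, and no culture without 4-hydroxytamoxifen was kept to 6, 12 or 24 h among these samples, so Ebf1-ER, the drug and time in culture cannot be told apart. The labels do not say whether samples of a group were grown or taken separately, and the p-values therefore rest on a spread that could be technical.

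Signals were log2 values centred on each probe set within an experiment, so a value of 0 is near the middle of that probe set's own arrays, and neither levels of different genes nor levels of different experiments can be set against each other. An adjusted p under 0.05 from limma, over all 45037 probe sets, is called a change. The leading component of all probe sets held 67.3% of the variance in the Ebf1-ER arrays and set the 0 h arrays (87.4 and 89.3) apart from the other 6 (-35.9 to -16.8). In 230238 cells it held 63.5%, and Ebf1-Engrailed sample 3 (20.7) lay nearer than the other Ebf1-Engrailed samples (61.4 and 62.8) to the empty-vector samples (-56.5 to -41.6). Of 5 Ebf1 probe sets, 4 were lower in Ebf1-Engrailed cells, by log2 differences of -1.50 to -1.77, and the surrogate light chain gene Igll1, an Ebf1 target, stood at -4.14. In the third experiment the wild-type pro-B arrays stood apart (107.9 and 118.5, against -35.3 to 16.3 for node arrays). Their mean over 14 myeloid marker probe sets was 3.47 and 3.70, against -1.07 to 0.98 on the node arrays, and 10 of the 14 were lower in the nodes, led by S100a9 (-7.99), S100a8 (-7.67) and myeloperoxidase Mpo (-7.21). Of 5 erythroid probe sets 3 were lower in the nodes too, of 15 stromal and endothelial probe sets 3 were lower, of 23 B-lineage probe sets 6 were lower and 1 higher, and of 41 proliferation probe sets 4 were higher and 1 lower. Over all probe sets 8.26% were higher and 6.94% lower in the nodes. The marker differences accompany every comparison of nodes with wild-type pro-B cells below, and their part in the members' results was not tested. In bulk RNA, fewer cells of a type and less RNA per cell cannot be told apart.

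Among the members the largest difference from empty vector, from 0 h and from wild-type pro-B cells was in each case that of the repressor gene Mxd1, except that at 6 and 24 h it was that of Mxd3 after quantile normalisation and at 24 h that of Mycl without the first 24 h array. In Ebf1-Engrailed cells 6 member probe sets were higher, against 5.12% of all probe sets, and 2 were lower, against 3.72%. After Ebf1-ER activation 3 were higher at 6 h (14.2% of all probe sets) and 12 lower (14.7%). At 12 h 3 were higher (15.4%) and 11 lower (17.1%), and at 24 h 3 were higher (16.1%) and 12 lower (16.3%). The 3 comparisons share the 0 h arrays. Between 24 h and 6 h, 3 were higher (3.32%) and 5 lower (2.84%). In tumour nodes 2 were higher than in wild-type pro-B cells (8.26%) and 6 lower (6.94%). The members' median difference at 6, 12 and 24 h was -0.46, -0.31 and -0.48, against 0.00, 0.01 and 0.02 over all probe sets. It was -0.03 in Ebf1-Engrailed cells (all probe sets -0.02), -0.02 for 24 h against 6 h (0.00) and -0.24 in tumour nodes (0.01).

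**Figure D1:**
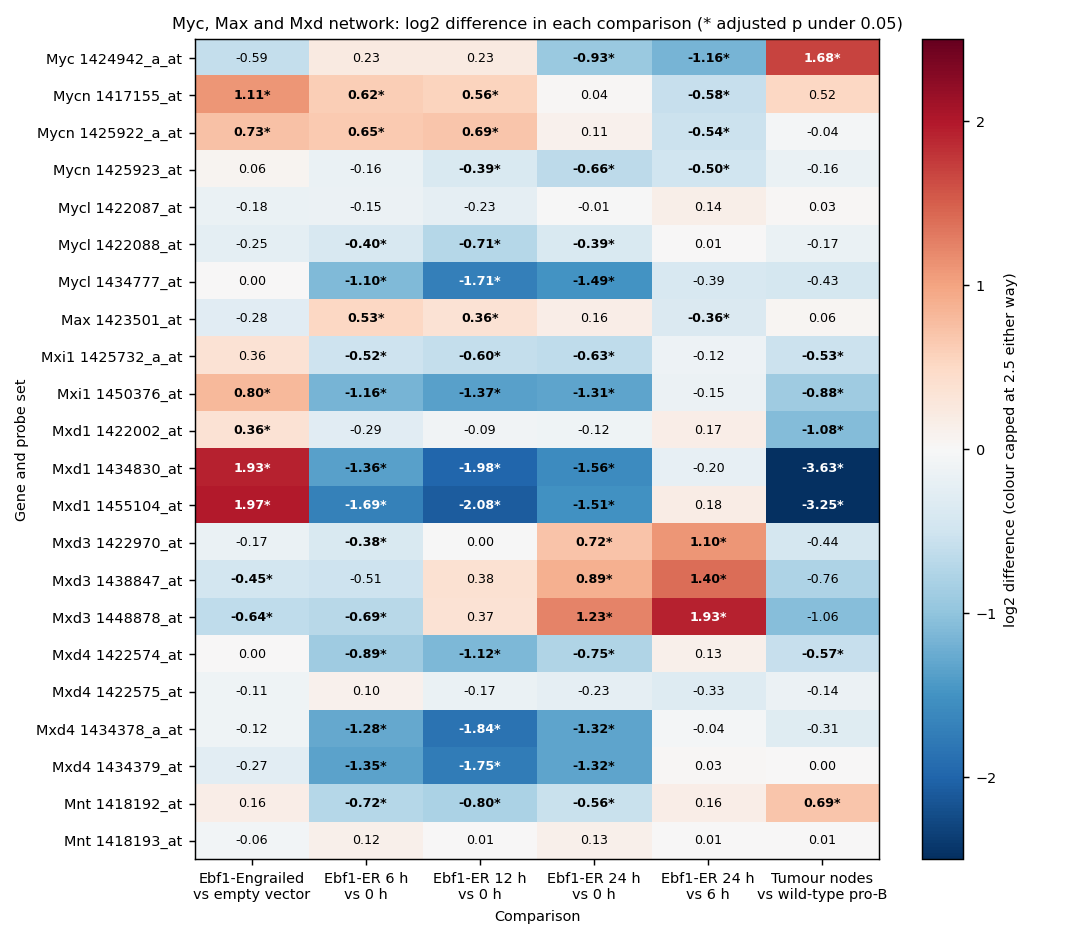
Each row is a member probe set and each column a comparison, with the log2 difference printed in the cell and shown as colour, red where the group named first is higher and blue where it is lower. An asterisk marks an adjusted p under 0.05. The Mxd1 probe sets 1434830_at and 1455104_at are red in Ebf1-Engrailed cells (1.93 and 1.97) and blue at every time after Ebf1-ER activation and in tumour nodes.

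The stretch around the transcription start, 250 bases before to 50 after it, was read from RefSeq sequences (GRCm38.p6) for 8 of the 9 members, in 10 promoters because Mxi1 has 3 starts. Myc had no entry. The search covered 2 motifs, which do not overlap each other and read the same on both strands: the E-box CACGTG, the site Myc-Max and Mxd-Max dimers bind, and an Ebf1 motif, TCCC and GGGA separated by any 2 bases. The E-box was present in 3 member promoters and in 7.15% of all 32851 promoters. The Ebf1 motif was present in 0 member promoters and in 0.904% of all promoters, and its absence says only that these letters are not in these windows. The 3 promoters with an E-box, those of Max, Mxd4 and Mnt, are printed, and that of Mxd1 because it carried the largest differences. After Ebf1-ER activation Max was higher and Mxd4 and Mnt were lower. The members without an E-box in these windows changed as well, so a change does not set these 3 genes apart. All run 5′ to 3′ on the gene's strand, with the E-box in capitals.
Max promoter, chr12:76962199-76962498, minus strand: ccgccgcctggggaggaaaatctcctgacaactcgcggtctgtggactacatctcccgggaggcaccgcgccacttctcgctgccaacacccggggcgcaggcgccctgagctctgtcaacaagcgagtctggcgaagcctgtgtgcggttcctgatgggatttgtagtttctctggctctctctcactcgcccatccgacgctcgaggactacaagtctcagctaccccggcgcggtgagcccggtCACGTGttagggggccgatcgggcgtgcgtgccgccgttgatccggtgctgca
Mxd4 promoter, chr5:34187661-34187960, minus strand: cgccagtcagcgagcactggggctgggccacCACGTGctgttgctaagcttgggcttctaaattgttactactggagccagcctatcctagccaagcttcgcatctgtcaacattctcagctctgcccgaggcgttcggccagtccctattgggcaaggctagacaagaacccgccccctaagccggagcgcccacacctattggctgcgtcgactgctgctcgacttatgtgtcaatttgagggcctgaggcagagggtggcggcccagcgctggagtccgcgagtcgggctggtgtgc
Mnt promoter, chr11:74830674-74830973, plus strand: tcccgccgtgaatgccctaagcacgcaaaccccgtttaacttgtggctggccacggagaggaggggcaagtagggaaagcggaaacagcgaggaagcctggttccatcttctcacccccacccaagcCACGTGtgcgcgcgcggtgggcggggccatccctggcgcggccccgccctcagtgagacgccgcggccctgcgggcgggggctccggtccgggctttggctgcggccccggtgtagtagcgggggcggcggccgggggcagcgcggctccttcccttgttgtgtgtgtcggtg
Mxd1 promoter, chr6:86669110-86669409, minus strand: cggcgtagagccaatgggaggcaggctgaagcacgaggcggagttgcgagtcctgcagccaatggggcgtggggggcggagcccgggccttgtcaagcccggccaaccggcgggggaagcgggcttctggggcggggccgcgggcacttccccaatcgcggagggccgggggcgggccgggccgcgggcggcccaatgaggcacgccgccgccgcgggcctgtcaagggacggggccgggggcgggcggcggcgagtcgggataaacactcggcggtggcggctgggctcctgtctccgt
The E-box began at position -3 from the start in Max, at -219 in Mxd4 and at -123 in Mnt. Mxd1 held neither motif in this window. A match describes the letters and is no measurement of binding.

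In Ebf1-Engrailed cells the repressor Mxd1 and the activator Mycn were higher, Mxi1 was higher by 1 of its 2 probe sets, and Mxd3 was lower. Mxd1 (chr6:86647044-86669234), a Max partner known from terminally differentiating cells, read 1.26, 1.30 and 0.74 by probe set 1455104_at in the Ebf1-Engrailed samples, against -0.99, -0.88 and -0.74 with empty vector. The groups did not overlap, and Ebf1-Engrailed sample 3 was the lowest of its group and empty-vector sample 3 the highest of its own. The difference was 1.97 ± 0.16 (log2, SE, 3.93-fold, n = 3 each, adjusted p = 0.00124). Probe set 1434830_at gave 1.22, 1.19 and 0.69 against -1.03, -0.98 and -0.69, a difference of 1.93 ± 0.17 (adjusted p = 0.00145). The remaining Mxd1 probe set, 1422002_at, differed by 0.36 ± 0.09 (adjusted p = 0.0481).

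Mycn (chr12:12936093-12941836), which encodes the Myc paralogue of embryonic and precursor cells, read 0.49, 0.53 and 0.62 by probe set 1417155_at in Ebf1-Engrailed cells, against -0.57, -0.49 and -0.63 with empty vector. The groups were tight and well apart, and the difference was 1.11 ± 0.09 (adjusted p = 0.00102). A second probe set, 1425922_a_at, differed by 0.73 ± 0.09 (adjusted p = 0.00386), while 1425923_at read 0.07, 0.07 and -0.08 against 0.01, -0.01 and -0.12 and did not pass (0.06 ± 0.09, adjusted p = 0.772). The Mycn probe sets thus disagreed.

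Myc itself (chr15:61985341-61990361) read -0.41, -0.47 and 0.09 in Ebf1-Engrailed cells, against 0.52, 0.54 and -0.09 with empty vector. Samples 1 and 2 were lower in Ebf1-Engrailed cells, and the samples numbered 3 lay on the other side of each other, so the groups overlapped and the difference did not pass (-0.59 ± 0.22, adjusted p = 0.174). Without empty-vector sample 3 it was -0.80 (adjusted p = 0.0477), and without both samples numbered 3, an alternative chosen after seeing the data, it was -0.97 (adjusted p = 0.00139). These 2 fits also called more over all probe sets, 4486 and 8274, against 2308 higher and 1676 lower with all samples. Max (chr12:76937269-76962323), the shared partner, did not pass (-0.28 ± 0.08, adjusted p = 0.0949), nor did any Mycl, Mxd4 or Mnt probe set, whose differences lay between -0.27 and 0.16.

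Mxi1 (chr19:53310128-53373293), also called Mxd2, read 0.16, 0.21 and 0.50 by probe set 1450376_at in Ebf1-Engrailed cells, against -0.64, -0.76 and -0.16 with empty vector, a difference of 0.80 ± 0.18 (adjusted p = 0.0363). Its other probe set, 1425732_a_at, differed by 0.36 ± 0.14 and did not pass (adjusted p = 0.18), and passed without empty-vector sample 3 (adjusted p = 0.0391). Mxd3 (chr13:55325170-55329900), a family member known from dividing precursors, read -0.39, -0.24 and -0.29 by 1448878_at in Ebf1-Engrailed cells, against 0.26, 0.49 and 0.24 with empty vector. It was lower in all 3 samples, by -0.64 ± 0.10 (adjusted p = 0.0116), and 1438847_at was lower as well (-0.45 ± 0.09, adjusted p = 0.0283), while 1422970_at did not pass (-0.17 ± 0.09).

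Of 41 proliferation marker probe sets 31 were lower in Ebf1-Engrailed cells and none was higher, with Tyms at -1.66, Kif11 at -1.66 and Mcm4 at -1.64. Their mean was -0.69 to -0.35 in Ebf1-Engrailed samples, against 0.50 to 0.57 with empty vector. Of 14 myeloid probe sets 3 were higher, with the Fc receptor chain gene Fcer1g at 6.55, Fcgr3 at 2.69 and Cd68 at 2.16. The list mean was 0.45 to 0.51 in Ebf1-Engrailed samples, against -0.59 to -0.41 with empty vector. Most of the list did not share this shift: the median difference was 0.20, and 9 of its 12 genes were not called. Of 25 T-cell probe sets 2 were higher, Lat (3.57) and Zap70 (0.86), and of 23 B-lineage probe sets 9 were lower. Over all probe sets 5.12% were higher and 3.72% lower. The part of these lists in the members' differences was not tested. The same-numbered samples deviated together in this experiment, and with the sample number as a block 6167 probe sets were called, against 2308 higher and 1676 lower without it. The members called numbered 8 either way. Left out in turn, Ebf1-Engrailed sample 1 left 4 calls, and Ebf1-Engrailed sample 2, Ebf1-Engrailed sample 3, empty-vector sample 1 and empty-vector sample 2 left 5 each. Over all probe sets these 5 fits called 1532, 1608, 5318, 2290 and 1912, in the same order. Mxd1 1434830_at and 1455104_at and Mycn 1425922_a_at were called under all 14 settings run, and Mxi1 1450376_at, Mxd1 1422002_at and Mxd3 1438847_at lost their calls without any 1 of those 5 samples (highest adjusted p for Mxi1 0.121). Mxd3 1448878_at lost its call without Ebf1-Engrailed sample 1 (adjusted p = 0.0650). When all 32 arrays shared 1 fit, Mycn 1417155_at (adjusted p = 0.284), Mxd3 1448878_at (0.270) and Mxd3 1438847_at (0.298) lost theirs. Over all probe sets that fit called 4848, more than the separate fit.

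**Figure D2:**
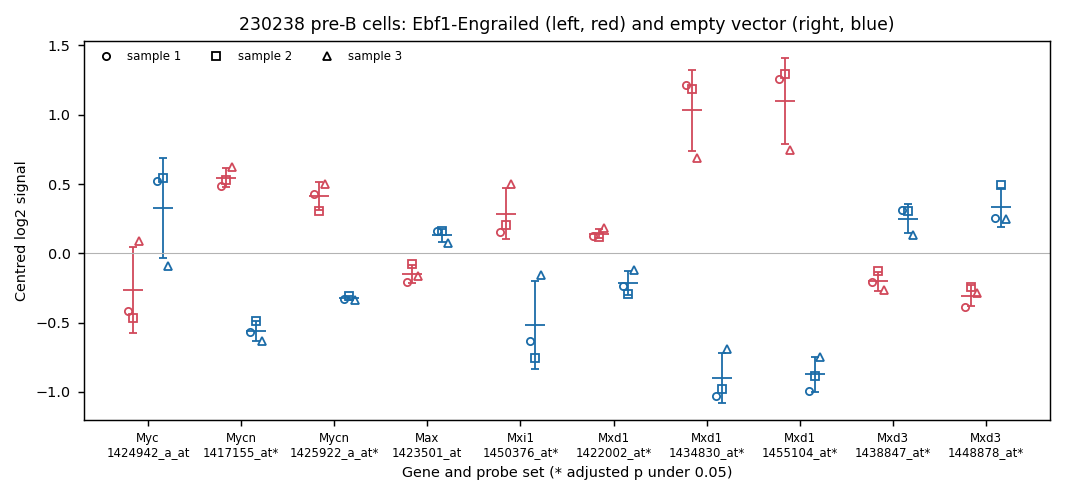
Centred log2 signal (vertical axis) of the called members, Myc and Max in the 3 Ebf1-Engrailed samples (red, left) and the 3 empty-vector samples (blue, right) of 230238 cells; the horizontal mark is the mean, the bar the SD, and the symbol gives the sample number. The Mxd1 and Mycn groups are apart, whereas the triangles of sample 3 bring the Myc groups into overlap (0.09 against -0.09).

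After Ebf1-ER activation in Ebf1-/- cells, Mxd1, Mxi1, Mxd4, Mnt and Mycl were lower at 6, 12 and 24 h than at 0 h by at least 1 probe set each, Mycn and Max were higher at 6 and 12 h, and Myc and Mxd3 moved in opposite directions late. Mxd1 had the largest decrease of the members at 12 h under every setting run, and at 6 and 24 h in the values as deposited. At 24 h its lead over Mycl was within the errors (-1.56 against -1.49, SE 0.12 each), and without the first 24 h array Mycl stood at -1.57. After quantile normalisation the largest decrease was that of Mxd3 1448878_at at 6 h (-1.17) and that of Myc at 24 h (-1.10). Probe set 1455104_at read 1.53 and 1.59 at 0 h, -0.04 and -0.23 at 6 h, -0.59 and -0.46 at 12 h, and 0.05 and 0.04 at 24 h. The lowest values came at 12 h, and the 0 h arrays lay above all 6 later ones. Differences from 0 h were -1.69 ± 0.10, -2.08 ± 0.10 and -1.51 ± 0.10 at 6, 12 and 24 h (n = 2 each, 4.24-fold at 12 h, largest adjusted p = 3.18e-05). Probe set 1434830_at gave -1.36, -1.98 and -1.56 (SE 0.12 each), while 1422002_at did not pass at any time (-0.29, -0.09 and -0.12), except at 6 h when the first 0 h array was left out (adjusted p = 0.0447).

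Mxd4 (chr5:34176580-34187710), a repressor also called Mad4, read 1.34 and 1.24 by 1434378_a_at at 0 h, 0.01 and 0.01 at 6 h, -0.56 and -0.54 at 12 h, and -0.07 and -0.01 at 24 h. The later arrays were all below the 0 h arrays, by -1.28, -1.84 and -1.32 (SE 0.09 each, largest adjusted p = 3.55e-05). Probe sets 1434379_at (-1.35, -1.75 and -1.32) and 1422574_at (-0.89, -1.12 and -0.75) changed in the same direction, and 1422575_at did not pass at any time (0.10, -0.17 and -0.23).

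Mxi1 read 1.09 and 1.35 by 1450376_at at 0 h, 0.05 and 0.07 at 6 h, -0.07 and -0.22 at 12 h, and -0.13 and -0.05 at 24 h. Its decrease was in place at 6 h (-1.16 ± 0.11, adjusted p = 0.000179) and was -1.37 ± 0.11 at 12 h and -1.31 ± 0.11 at 24 h. Its other probe set, 1425732_a_at, was lower by -0.52, -0.60 and -0.63 (SE 0.10 each). Mnt (chr11:74830806-74845725), a repressor present in both dividing and resting cells, read 0.57 and 0.68 by 1418192_at at 0 h, -0.16 and -0.04 at 6 h, -0.15 and -0.20 at 12 h, and 0.04 and 0.08 at 24 h. It was lower by -0.72, -0.80 and -0.56 (SE 0.09 each, largest adjusted p = 0.00216), while 1418193_at, on the same transcript, did not pass (0.12, 0.01 and 0.13).

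Among the activators, L-Myc (Mycl, chr4:122995588-123002490) read 1.20 and 1.37 by 1434777_at at 0 h, 0.12 and 0.26 at 6 h, -0.30 and -0.54 at 12 h, and -0.12 and -0.29 at 24 h. The 0 h arrays were the highest, and the differences were -1.10, -1.71 and -1.49 (SE 0.12 each, largest adjusted p = 0.000381). Probe set 1422088_at was lower too (-0.40, -0.71 and -0.39), and 1422087_at did not pass (-0.15, -0.23 and -0.01).

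Mycn went the other way at first. Probe set 1417155_at read -0.45 and -0.21 at 0 h, 0.28 and 0.30 at 6 h, 0.25 and 0.21 at 12 h, and -0.28 and -0.31 at 24 h. It was higher at 6 h (0.62 ± 0.10, adjusted p = 0.00248) and at 12 h (0.56 ± 0.10, adjusted p = 0.00362), and at 24 h it lay among the 0 h values (0.04 ± 0.10, adjusted p = 0.833). Probe set 1425922_a_at gave 0.65, 0.69 and 0.11 (SE 0.12 each), and passed at the same 2 times. Probe set 1425923_at, drawn from the same transcript record as 1425922_a_at, was lower at 12 h (-0.39 ± 0.10) and 24 h (-0.66 ± 0.10), so at 12 h the Mycn probe sets passed in opposite directions. Max, the common partner, read -0.25 and -0.27 at 0 h, 0.29 and 0.24 at 6 h, 0.06 and 0.13 at 12 h, and -0.13 and -0.06 at 24 h. It was higher at 6 h (0.53 ± 0.08, adjusted p = 0.00221) and 12 h (0.36 ± 0.08, adjusted p = 0.013) and did not pass at 24 h (0.16 ± 0.08, adjusted p = 0.192).

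Myc read -0.21 and -0.03 at 0 h, 0.10 and 0.11 at 6 h, 0.18 and 0.03 at 12 h, and -1.04 and -1.06 at 24 h. The 24 h arrays lay far below all others. The differences from 0 h did not pass at 6 h (0.23 ± 0.10, adjusted p = 0.133) or 12 h (0.23 ± 0.10, adjusted p = 0.127), and passed at 24 h (-0.93 ± 0.10, adjusted p = 0.000247). Mxd3 had another shape: 1448878_at read -0.10 and -0.36 at 0 h, -0.68 and -1.16 at 6 h, 0.10 and 0.19 at 12 h, and 0.90 and 1.11 at 24 h. It was lower at 6 h (-0.69 ± 0.17, adjusted p = 0.0179), did not pass at 12 h (0.37 ± 0.17, adjusted p = 0.149) and was higher at 24 h (1.23 ± 0.17, adjusted p = 0.000965). Probe sets 1438847_at (-0.51, 0.38 and 0.89) and 1422970_at (-0.38, 0.00 and 0.72) were higher at 24 h as well.

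The direct comparison of 24 h with 6 h leaves out the 0 h means. All 3 Mxd3 probe sets were higher at 24 h, by 1.93 ± 0.17, 1.40 ± 0.19 and 1.10 ± 0.12 (largest adjusted p = 0.00618). Myc was lower (-1.16 ± 0.10, adjusted p = 0.000635), as were the 3 Mycn probe sets (-0.58, -0.54 and -0.50) and Max (-0.36 ± 0.08, adjusted p = 0.0479). No probe set of Mycl, Mxi1, Mxd1, Mxd4 or Mnt passed, with differences of -0.39 to 0.18. Fewer of the 8 members were called without any single 6 h, 12 h or 24 h array, each of which leaves 1 array at that time. Over all probe sets fewer were called in these fits as well. Mxd3 1438847_at and 1448878_at were called under all 16 settings run. Myc (adjusted p = 0.352) and Mxd3 1422970_at (0.0771) lost their calls when the 3 experiments shared 1 fit, whose spread included that between tumour nodes. The calls that went with single arrays were those of Mycn and Max. Max lost its call under 12 of the 16 settings, and Mycn 1417155_at, 1425922_a_at and 1425923_at under 5, 8 and 7. All 4 lost it without any single 6 h or 24 h array, with adjusted p-values of up to 0.225 for Max and 0.187 for Mycn.

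**Figure D3:**
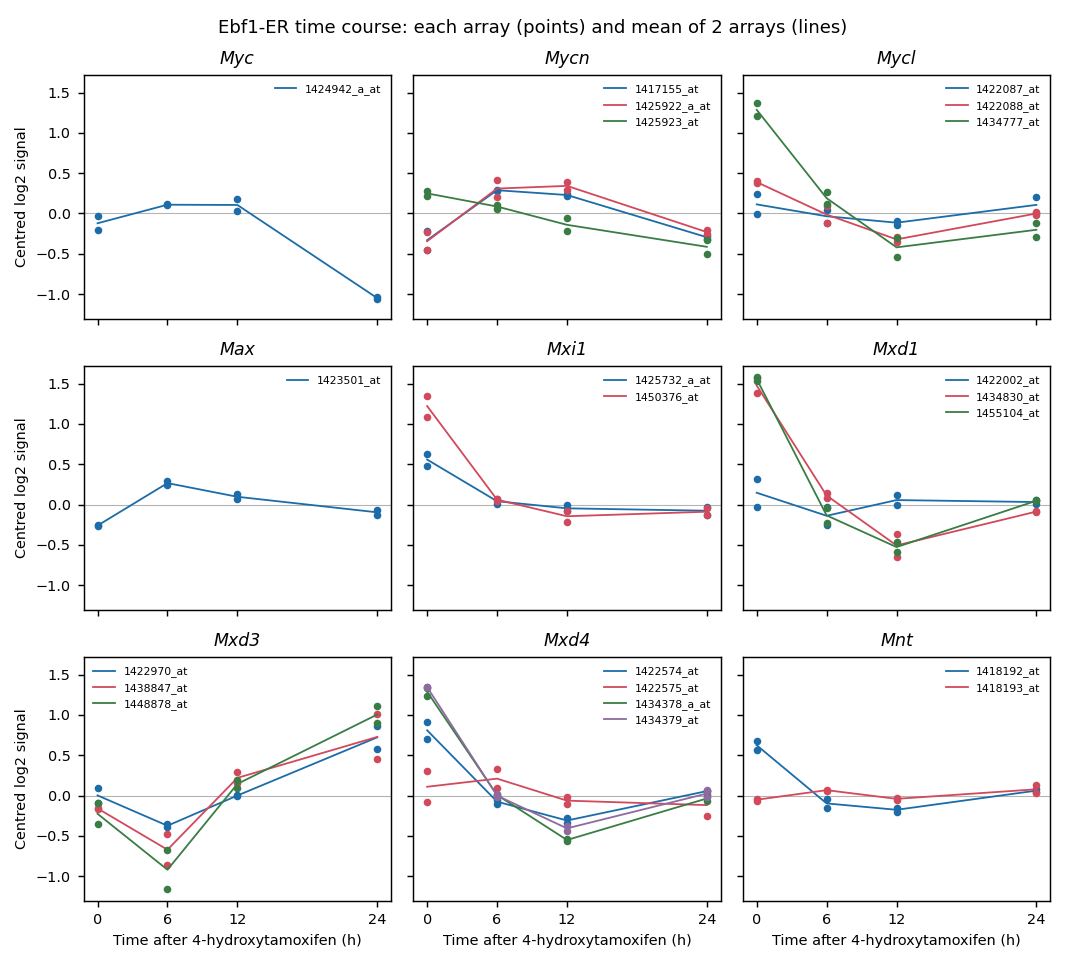
Centred log2 signal (vertical axis) against hours after 4-hydroxytamoxifen (horizontal axis) for all 22 member probe sets, 1 panel per gene; points are single arrays and lines join the means of 2 arrays. The 0 h arrays are highest for most probe sets of Mycl, Mxi1, Mxd1 and Mxd4, Myc is lowest at 24 h (-1.04 and -1.06) and Mxd3 is highest there.

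Quantile normalisation, which gives every array the same spread of centred values, moved 11 of 15 called members by over 1.5 times at 6 h, 2 of 14 at 12 h and 10 of 15 at 24 h, and ended 4, 2 and 2 calls. Mxd1 1434830_at at 6 h, for example, became -0.60 with an adjusted p of 0.0644, and Mycl 1434777_at became -0.36 with 0.261. Single arrays ended some calls of smaller size. The 6 h decrease of Mxd3 1448878_at was -0.45 without the second 6 h array (adjusted p = 0.0892) and -0.56 without the first 0 h array (adjusted p = 0.102). The calls of Mycl 1422088_at at 6 and 24 h, of Mycn 1425923_at and Max at 12 h and of Mxd3 1422970_at at 6 h were also lost without at least 1 single array. When the 3 experiments shared 1 fit, Mycn 1417155_at lost its calls at 6 h (adjusted p = 0.663) and 12 h (0.672). Max lost its call at 12 h (0.102), Mxd3 1448878_at at 6 h (0.289) and Myc at 24 h (0.175). The counts of members called stayed between 12 and 16 at all 3 times whichever array was left out.

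The marker lists moved over the same hours. At 6, 12 and 24 h 14.2%, 15.4% and 16.1% of all probe sets were higher and 14.7%, 17.1% and 16.3% lower. Of 41 proliferation probe sets 24, 36 and 37 were higher at 6, 12 and 24 h and 7, 0 and 0 lower, and 23 were higher at 24 h than at 6 h, with Bub1 at 2.11 and Aurkb at 1.77. Their list mean was -0.83 and -0.79 at 0 h, -0.40 and -0.38 at 6 h, 0.24 and 0.29 at 12 h, and 0.37 and 0.43 at 24 h. Of 25 T-cell probe sets 9, 8 and 7 were lower, with Trat1 at -2.79, -3.15 and -2.80. Of 14 myeloid probe sets 6, 6 and 5 were lower and 1 was higher at each time, and of 15 stromal and endothelial probe sets 3, 5 and 5 were lower. Of 23 B-lineage probe sets 2, 2 and 3 were higher, with Igll1 at 0.74, 1.78 and 3.59, and 9, 9 and 8 lower, with the terminal transferase gene Dntt at -3.02, -3.35 and -3.31. The part of these lists in the members' differences was not tested.

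In tumour nodes, relative to wild-type pro-B cells, Mxd1 was lower by all 3 probe sets, Mxi1 by both, Mxd4 by 1 of 4, and Myc and Mnt were higher. Mxd1 1434830_at had node means with a lowest value of -1.04, a median of -0.12 and a highest value of 1.22 over 8 nodes, against 3.37 and 3.74 on the wild-type arrays. The highest node lay well below both wild-type arrays, and the difference was -3.63 ± 0.46 (12.3-fold, n = 8 nodes against 2 arrays, adjusted p = 0.000783). Probe set 1455104_at was lower by -3.25 ± 0.31 (9.51-fold, adjusted p = 9.92e-05) and 1422002_at by -1.08 ± 0.08 (adjusted p = 1.41e-05). Mxd1 is also known from granulocytes, and the myeloid markers were high on the same 2 wild-type arrays, where their part was not tested.

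Myc had node means of -1.25, 0.08 and 0.54 (lowest, median and highest), against -1.77 and -1.89 in wild-type pro-B cells. All 8 nodes were above both wild-type arrays, by 0.58 to 2.37 relative to the wild-type mean. The difference was 1.68 ± 0.46 (3.21-fold, adjusted p = 0.0332). The call depended on the samples: without wild-type array 1 the adjusted p was 0.148, without wild-type array 2 it was 0.213, and without node 278, 279, 327 or 383 it lay between 0.0507 and 0.0566. Mycn did not pass by any probe set (0.52 ± 0.76, -0.04 ± 0.15 and -0.16 ± 0.09), nor did Mycl (-0.43, -0.17 and 0.03) or Max (0.06 ± 0.15, adjusted p = 0.85).

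Mxi1 1450376_at had node means of -0.68 to 0.26 with a median of -0.01, against 0.65 and 0.91 in wild-type pro-B cells, and was lower by -0.88 ± 0.22 (adjusted p = 0.0213). Its probe set 1425732_a_at was lower by -0.53 ± 0.15 (adjusted p = 0.0353). Mnt 1418192_at had node means of -0.16 to 0.55 with a median of 0.07, against -0.65 and -0.48, and was higher by 0.69 ± 0.16 (adjusted p = 0.0163); 1418193_at did not pass (0.01 ± 0.07). Mxd4 1422574_at was lower by -0.57 ± 0.15 (adjusted p = 0.0326), while the other 3 Mxd4 probe sets did not pass (-0.31, -0.14 and 0.00). Mxd3 stood at -1.06 ± 0.41, -0.76 ± 0.29 and -0.44 ± 0.29 and did not pass, although 1448878_at passed without node 277 (adjusted p = 0.0420), as Mycl 1434777_at did without node 292 (adjusted p = 0.0124). With all node arrays fitted and the node as a random block, Mxd3 1448878_at (adjusted p = 0.0341) and Mycl 1434777_at (0.0376) both passed as lower in the nodes. When the 3 experiments shared 1 fit, these 2 (0.0199 and 0.0145) and Mxd3 1438847_at (0.0235) passed. Both fits also called more over all probe sets, 7880 with the random block and 9859 with 1 fit. The main fit called 3718 higher and 3124 lower.

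Without either wild-type array, which leaves 1, the members still called were all of Mxd1, and fewer were called over all probe sets as well. Without node 278 or node 383 5 members were called in place of 8. Over all probe sets these 2 fits called 5767 and 5670, against 3718 higher and 3124 lower with all nodes. The calls of Myc, Mnt 1418192_at, both Mxi1 probe sets and Mxd4 1422574_at were each lost without wild-type array 1, without wild-type array 2 and after quantile normalisation. The adjusted p without array 1 and without array 2 was 0.139 and 0.0922 for Mnt, 0.0789 and 0.208 for Mxi1 1450376_at, 0.156 and 0.209 for Mxi1 1425732_a_at, and 0.176 and 0.169 for Mxd4. Mxd1 1422002_at and 1455104_at were called under all 17 settings run. Quantile normalisation left 2 calls, Mxd1 1455104_at (-1.70) and 1422002_at. Under it Mxd1 1434830_at was -1.90 (adjusted p = 0.0687) and Myc 1.35 (adjusted p = 0.195). The wild-type group rests on single arrays and each node on a mean of 2.

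The nodes differed from one another more than their duplicate arrays did for 15 of the 22 member probe sets, against 54.0% of all probe sets (moderated F over 8 nodes, 2 arrays each, which measures array spread and not spread between mice). Mycn 1417155_at had the widest range, from node 317 (-1.38 and -1.33) to node 278 (2.46 and 2.04), 12.2-fold on the means (adjusted p = 1.40e-07). Node 278 stood alone at the top. Nodes 327 (-0.91 and -1.15) and 381 (-1.06 and -0.70) overlapped each other above node 317, and nodes 279, 277, 292 and 383 formed a middle group whose neighbours overlapped, with arrays between 0.11 and 0.50. Against wild-type pro-B arrays of -0.25 and -0.71, node 278 stood at 2.73 and node 317 at -0.87 relative to the wild-type mean.

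Myc ranged 3.44-fold between nodes (adjusted p = 2.09e-09). Nodes 317 (-1.23 and -1.27) and 292 (-1.16 and -1.27) were lowest and overlapped, and after a gap followed nodes 277 (0.00 and 0.00), 383 (0.04 and 0.04), 327 (0.15 and 0.09), 279 (0.22 and 0.16), 278 (0.39 and 0.36) and 381 (0.56 and 0.51), of which no neighbours overlapped. Node 317 was thus lowest for both genes, node 381 was highest for Myc and the third lowest for Mycn, and node 292, low for Myc, lay in the middle group for Mycn. The same nodes stood at the ends of some marker lists. The mean of the B-lineage markers was lowest in nodes 317 (-0.95) and 381 (-0.78) and highest in node 292 (0.55), and that of the stromal and endothelial markers was highest in node 292 (0.23, against -0.05 to 0.05 in the others). In node 278, where Mycn was highest, the T-cell marker mean was the lowest (-0.51). The part of these markers in the node differences was not tested.

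Mxd1 1434830_at ranged 4.78-fold, from node 277 (-0.82 and -1.26) to node 317 (1.27 and 1.16), with no overlap between any neighbours in its order, 277, 381, 278, 292, 279, 383, 327 and 317. Node 277 also had the lowest myeloid marker mean (-1.03), and node 317 one of -0.32, and the part of these markers was not tested. Probe set 1455104_at also placed nodes 327 (0.58 and 0.60) and 317 (1.13 and 0.71) on top, but its lower 6 nodes overlapped their neighbours. Mnt 1418192_at was highest in node 317 too (0.59 and 0.52), and no array of another node exceeded 0.27. Mxd3 1448878_at ranged 3.50-fold, from node 381 (-0.87 and -0.86) to node 277 (0.96 and 0.93), and its other probe sets had the same lowest and highest nodes. Mxd4 1434378_a_at was highest in node 292 (0.68 and 0.66) and lowest in node 277 (-0.47 and -0.47), as was 1434379_at. Mycl 1434777_at was highest in node 292 (0.43 and 0.35) and lowest in node 381 (-0.34 and -0.32). Max ranged 1.51-fold, with node 277 highest (0.49 and 0.35) and node 292 lowest (-0.18 and -0.16). Mxi1 1450376_at was lowest in node 279 (-0.76 and -0.60), the node with the highest T-cell marker mean (1.61, against -0.51 to 0.57 in the other nodes) and the highest myeloid marker mean (0.95), whose part was not tested. The 7 probe sets that did not differ between nodes were 1425922_a_at and 1425923_at of Mycn, 1422087_at and 1422088_at of Mycl, 1422002_at of Mxd1, 1422575_at of Mxd4 and 1418193_at of Mnt. Mycn 1425922_a_at passed without the first array of node 278 (adjusted p = 0.0397), and Mxi1 1425732_a_at, which differed between nodes, did not pass without either array of node 277 or the first of node 279 (adjusted p = 0.0536 to 0.0708). Of the 7, 1422087_at, 1422575_at and 1418193_at were called in none of the 7 comparisons.

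**Figure D4:**
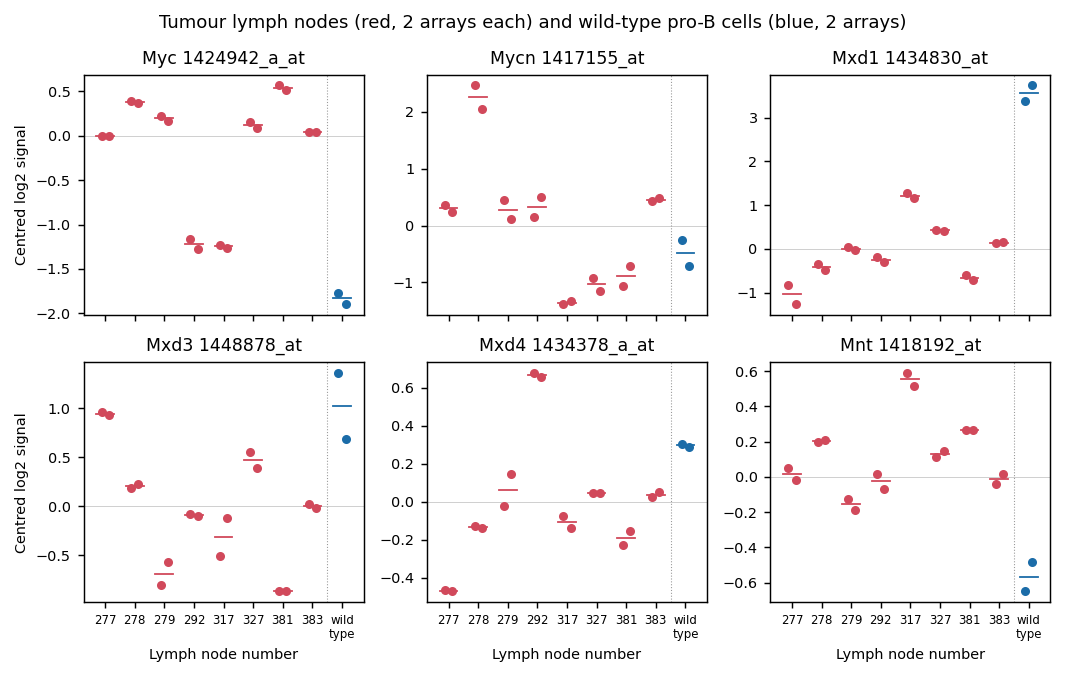
Centred log2 signal (vertical axis, own scale in each panel) on both arrays of each tumour node (red) and of wild-type pro-B cells (blue, right of the dotted line); bars are means of 2 arrays. Mycn is highest in node 278, Myc is lowest in nodes 292 and 317, and Mxd1 lies at 3.37 and 3.74 in wild-type pro-B cells, above every node.

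The genes whose node pattern lay closest to Myc, by the root mean square difference of centred node means over 8 nodes, were Ddx1, B3galt6, Sbsn, Mctp2 and Ahcyl2, at 0.242 to 0.272, beside an SD over nodes of 0.69 for Myc itself. For Mycn 1417155_at they were Pgap1, Acer3, Cpne2, Zfp518b and Plekha8, at 0.566 to 0.645 beside an SD of 1.15.

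A list of Myc target genes, 32 of them measured (83 probe sets, genes of ribosome biogenesis, polyamine and nucleotide synthesis and the cell cycle) was set beside the members. The shares of all probe sets called in each comparison, given with the member counts, apply to the list counts as well. After Ebf1-ER activation 73, 77 and 73 of its probe sets were higher at 6, 12 and 24 h and none was lower, with medians of 1.47, 1.59 and 1.36. Srm, spermidine synthase, stood at 3.28, 3.51 and 2.85, and Polr1b, a subunit of RNA polymerase I, at 2.95, 3.25 and 2.58. Between 24 h and 6 h, when Myc was lower, 1 was higher (Tfrc, 0.80) and 2 were lower (Nolc1, -0.55, and Bop1, -0.45). These counts were not above the shares of all probe sets, 3.32% higher and 2.84% lower. In Ebf1-Engrailed cells 4 of the 83 were higher and 1 lower, against 5.12% and 3.72% of all probe sets. Neither count was above that share. Ornithine decarboxylase Odc1 stood at 2.29, Ldha at 0.55 and the phosphatase gene Cdc25a at -0.73. In tumour nodes 48 were higher than in wild-type pro-B cells and none lower, with a median of 0.75, led by Polr1b (2.02), Apex1 (1.67) and Ppat (1.66).

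Of 21 probe sets of 10 genes known to be repressed by Myc, 14, 15 and 14 were lower at 6, 12 and 24 h, with the antiproliferative gene Btg2 at -3.08, -3.67 and -3.07 (by its probe set with the larger change at each time) and Ndrg1 at -1.30, -1.78 and -1.04. At 6 h 2 were higher (14.2% of all probe sets), with Gadd45b at 0.52. At 24 h 2 were higher than at 6 h (3.32%), with Klf4 at 1.12. In Ebf1-Engrailed cells 5 were higher and 2 lower, with Ndrg1 at 1.84, the cyclin-dependent kinase inhibitor gene Cdkn2b at 1.13, Btg2 at -0.94 and Gadd45b at -0.74. In tumour nodes 9 were lower and none higher, with Ndrg1 at -3.36, Gadd45a at -2.75 and Tob1 at -1.49. Among the nodes the target list was lowest in node 292 (-0.69, against -0.02 to 0.24 in the others), as were the proliferation markers (-0.50). In node 317, where Myc was as low, the target list mean was 0.12 and that of the repressed genes the highest of the nodes (0.58).

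**Figure D5:**
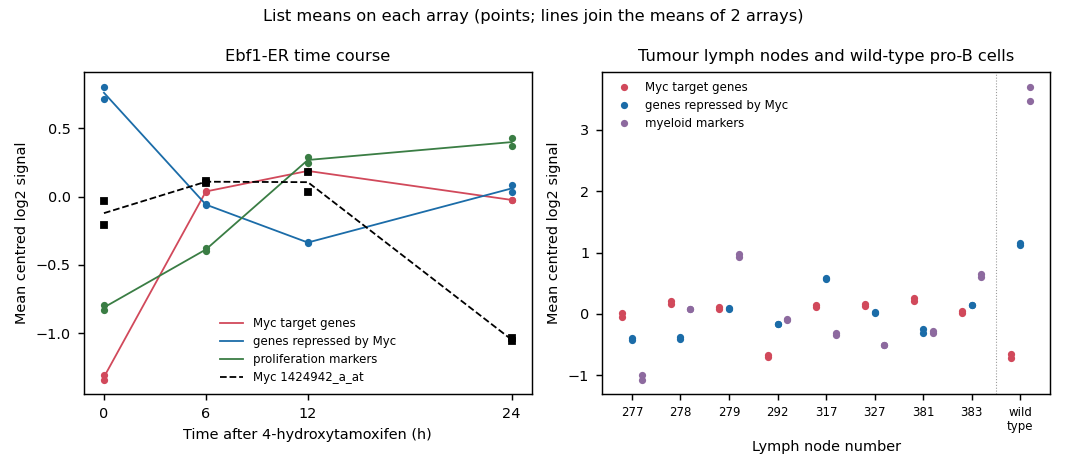
Left, mean centred log2 signal on each array of Myc target genes, genes repressed by Myc and proliferation markers, with the Myc probe set dashed, against hours after 4-hydroxytamoxifen; right, means of the target, repressed and myeloid lists on both arrays of each tumour node and of wild-type pro-B cells. At 24 h Myc is at its lowest while the target list lies near 0 (-0.03 and -0.02), and the myeloid markers are highest in wild-type pro-B cells (3.47 and 3.70).

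Among 17 cofactor genes of the network (43 probe sets), 15, 17 and 17 probe sets were higher and 6, 5 and 5 lower at 6, 12 and 24 h. Of all probe sets 14.2%, 15.4% and 16.1% were higher and 14.7%, 17.1% and 16.3% lower. The lower counts of the cofactors did not exceed that share. The acetyltransferase gene Kat2a stood at 1.74, 1.74 and 1.48 and the helicase gene Ruvbl1 at 1.32, 1.44 and 1.20, while Trrap, the scaffold Myc binds, stood at -0.51, -0.38 and -0.44. In Ebf1-Engrailed cells 1 passed, Actl6a (-0.55). In tumour nodes 6 were higher (8.26% of all probe sets), with Kat2a at 1.08 and Ruvbl2 at 0.74. There 3 were lower (6.94%), with the Max partner Mga at -1.20. Of 36 probe sets of 13 genes that control Myc stability, 11, 15 and 14 were higher and 12, 10 and 4 lower at 6, 12 and 24 h. The 4 lower at 24 h did not exceed the share of all probe sets (16.3%). The ubiquitin ligase subunit gene Skp2 stood at 1.41, 1.97 and 2.00, and Gsk3b, the kinase that marks Myc for degradation, at -1.16, -0.88 and -1.20 by 1 probe set. Aurka (1.77), Plk1 (1.96) and Cip2a (1.50), which are also genes of dividing cells, were higher at 24 h than at 6 h. In that comparison 8 of the list were higher (3.32% of all probe sets) and 1 lower (2.84%). In Ebf1-Engrailed cells 1 was higher (5.12% of all probe sets), another Gsk3b probe set (0.57). There 6 probe sets were lower (3.72%), among them Cip2a (-0.96), Aurka (-0.88) and Plk1 (-0.79). In tumour nodes 4 of the 36 were higher (8.26% of all probe sets), led by the deubiquitinase gene Usp36 (1.13). There 4 were lower (6.94%), with Aurka at -0.77 by 1 probe set.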

How the data were processed

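RNA was measured on 32 Affymetrix mouse whole-genome expression arrays. The deposited values are log2 signals made by the authors with RMA, per the submitters' processing notes, which give no version, and the log base was taken as log2 because none is stated. In the deposited table the median over an experiment's arrays was 0 for 100% of probe sets in the 230238 and Ebf1-ER experiments and for 24.0% in the lymph node experiment. With centred values no level of a gene, no background threshold and no contrast across experiments was used here.

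Of 45101 probe sets, 64 controls were left out. Each experiment was fitted separately in limma 3.58.1 (R 4.3.3, lmFit and eBayes), with Benjamini-Hochberg adjustment over 45037 probe sets. The arrays of a node were averaged first, and a moderated F test over 16 arrays compared nodes. Every member probe set is named, and from each list at most 3 genes per direction with the largest called difference. Members and lists were chosen with earlier results of these data known. Gene names came from the array annotation, with 34958 probe sets naming 1 gene, 932 several and 9211 none, and gene coordinates and promoters from RefSeq (GRCm38.p6). In the 230238 experiment same-numbered samples deviated together (correlations 0.256 to 0.481 in 3 of 3 pairs, although Ebf1-Engrailed sample 1 correlated more with empty-vector sample 2, at 0.345, than with sample 1). No label states a pairing. The values given are from the fit without pairs, and the fit with the number as a block was an alternative. The scripts were tested on simulated data with 200 of 45037 probe sets changed, fewer than were called in any comparison here. The adjustment of p-values depends on that number, and simulated 230238 samples of the same number did not deviate together. The rates that follow hold for the simulated data and need not be those of the real tests. A set log2 change of 1 was called for 64.5% of changed probe sets in tumour nodes and 78% in Ebf1-Engrailed cells. In the Ebf1-ER comparisons it was 96.5% at 6 h, 95% at 12 h and 94% for 24 h against 6 h. A difference that did not pass can therefore be one that was missed. Alternatives were array alignment, quantile normalisation, probe set filters, robust eBayes, 1 fit over all arrays, a replicate block, a random block for nodes and leaving out samples. The 1 fit over all arrays joined the 3 experiments with the arrays of each node averaged first. Its spread included that between nodes.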

Additional observations from a re-analysis of the deposited data

Results flagged for a closer look

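Of the 22 member probe sets, 2 had 1 lymph node whose gap to its nearest neighbour exceeded Dixon's critical value (95%) for 8 nodes, and chance gives about 1 in 20 such cases. Mxd4 1434378_a_at stood at 0.668 in node 292, and the next highest node at 0.06. Mxd1 1422002_at stood at 0.0956 in node 317, a probe set that did not differ between nodes beyond its duplicate arrays (adjusted p = 0.932).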

How the results depend on the processing

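No member call changed direction under any setting. In Ebf1-Engrailed cells 8 members were called, 5 when all arrays shared 1 fit, and 4 to 10 when samples were left out. Over all probe sets that 1 fit called more in Ebf1-Engrailed cells, 4848, against 2308 higher and 1676 lower in the separate fit. For 24 h against 6 h the 8 calls became 3 with 1 fit over all arrays, 5 with the replicate block, 7 in a fit without the 0 h arrays (chosen after seeing the data) and 4 to 7 with single arrays left out. In tumour nodes the 8 calls became 2 after quantile normalisation, and 3 to 9 with a wild-type array or node left out. Calls numbered 13 to 16 at 6 h, 12 to 14 at 12 h, 14 to 15 at 24 h and 14 to 16 between nodes when single arrays were left out. In the Ebf1-ER experiment same-numbered samples shared only a number (correlations -0.171 to 0.152), and the block gave 14, 14 and 15 calls at 6, 12 and 24 h. With the most variable probe set of each gene or the mean of its probe sets, 4 or 5 genes were called in Ebf1-Engrailed cells and 4 in tumour nodes. Max passed in Ebf1-Engrailed cells by the mean (adjusted p = 0.0444). Mxd4 lost its call in tumour nodes both ways (0.389 and 0.291). For 24 h against 0 h Mycn lost its call both ways (0.506 and 0.174) and Mnt by the mean (0.0528). Over all probe sets, quantile normalisation called 5775, 8586, 7641 and 4642 probe sets at 6, 12 and 24 h and for 24 h against 6 h, and 1353 in tumour nodes, and 1 fit over all arrays called 7358, 9087, 8952 and 387 in the 4 Ebf1-ER comparisons. Without any single 6 h, 12 h or 24 h array fewer were also called for 24 h against 6 h. Without either wild-type array fewer were called in tumour nodes. The cause of these changes was not tested.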
